A study of Rattus norvegicus with 6 samples.

Results

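Genes of the contractile apparatus of smooth muscle were followed in injured rat esophagus: Acta2, Tagln, Myh11 and Des, 4 of the 32623 genes in the deposited count table. They were chosen by their Ensembl identifiers, ENSRNOG00000058039 for Acta2, ENSRNOG00000017628 for Tagln, ENSRNOG00000057880 for Myh11 and ENSRNOG00000019810 for Des. The pairing of symbols with identifiers was taken as given and could not be checked against an annotation. All 4 genes passed the filter on low counts, which kept 14481 genes. RNA came from full-thickness esophagus of male wild-type Sprague-Dawley rats, an outbred strain, aged 8 to 10 weeks at 250 ± 20 g. The control group was 3 untreated animals. The injured group was 3 animals whose esophagus had been rubbed locally with a 3D-printed device passed through the mouth. Tissue of both groups was taken on day 28, with 1 library of polyadenylated RNA per animal. Controls had no sham insertion in the labels, so the friction and the handling of the device cannot be told apart.

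Smooth muscle cells shorten when myosin filaments pull on actin filaments that are anchored to the membrane and to intermediate filaments. Serum response factor, with its partner myocardin, drives many of the genes involved by binding a short DNA element called the CArG box. In the rodent esophagus the outer muscle coat is largely striated, and smooth muscle lies mainly in the muscularis mucosae and in vessel walls. Myofibroblasts, the contractile fibroblasts of scar tissue, also make Acta2 and Tagln but are known for little Myh11. Acta2 encodes smooth muscle alpha-actin, the thin filament protein. Tagln encodes transgelin, a small actin-binding protein. Myh11 encodes the smooth muscle myosin heavy chain, the motor. Des encodes desmin, an intermediate filament protein of smooth and striated muscle alike.

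RefSeq promoter sequences (build GRCr8) matched 2 of the 4 genes by symbol, Acta2 and Des. They are shown because no others of the 4 were found, and Acta2 is a textbook target of serum response factor. Whether the sequences bear on the values given below was not tested. Each sequence is the 250 bases upstream of the annotated start, read 5′ to 3′ on the gene's strand. Capitals mark CArG-like elements, in which 1 of the 6 central bases is C or G. The Acta2 window is chr1:241172504-241172753 on the minus strand and the Des window is chr9:84299376-84299625 on the plus strand.
Acta2: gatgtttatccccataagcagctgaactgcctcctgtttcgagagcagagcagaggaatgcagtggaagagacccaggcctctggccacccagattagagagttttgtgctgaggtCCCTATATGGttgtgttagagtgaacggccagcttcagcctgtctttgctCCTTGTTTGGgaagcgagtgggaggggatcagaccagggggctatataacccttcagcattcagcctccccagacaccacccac
Des: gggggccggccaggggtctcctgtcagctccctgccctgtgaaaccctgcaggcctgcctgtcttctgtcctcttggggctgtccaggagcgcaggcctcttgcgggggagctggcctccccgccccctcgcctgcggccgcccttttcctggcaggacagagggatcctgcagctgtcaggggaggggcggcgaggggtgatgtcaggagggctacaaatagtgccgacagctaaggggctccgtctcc

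The Acta2 window held 2 CArG-like elements, at 134 to 125 and at 84 to 75 bases upstream of the start. Neither window held a CArG box with all central bases A or T, on either strand. Of 33469 promoters of the same length, 6.84% held a CArG-like element and 1.5% a full CArG box. Another motif, CATTCC (named MCAT, searched on both strands with no overlap with the CArG elements), was found in Acta2 on the minus strand at 196 to 191 bases upstream and in 12.1% of all promoters. The CArG-like form was added after the Acta2 sequence had been read, so its presence there is a description. That these letters are missing from the Des window says nothing about elements outside it.

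Libraries held between 14181903 and 18376578 counts, and TMM scaling factors, which adjust for library composition, lay between 0.963 and 1.033. They differed by group, at 0.963 to 0.981 in controls and 1.022 to 1.033 in injured animals. TMM scaling therefore lowers the values of injured animals relative to controls. Levels are given as CPM, the counts of a gene scaled to a common library size with these factors. Values of the 3 animals of a group are listed in the order of replicates 1, 2 and 3. Levels of different genes are not compared, because CPM is not per unit length. The values of the 4 genes rested on 1519 to 53366 counts each. Counting error alone was then 0.433% to 2.57% of a value. In 65.1% of the tested genes the controls varied more on the log2 scale than the injured animals did, and control replicate 1 stood apart from the other controls in 3 of the 4 genes, as given below.

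Transcripts of Acta2, Tagln and Myh11 were 3.25 to 4.52 times less abundant in injured than in control esophagus, while Des differed by 1.08-fold. In each of the first 3 genes every injured animal lay below every control animal. That pattern was found in 15.6% of all tested genes. None of the 4 genes passed an adjusted p of 0.05 (edgeR quasi-likelihood test, group as the only term), a threshold that 0.642% of tested genes passed as lower and 0.711% as higher. At an unadjusted p under 0.05, 3 of the 4 were lower, against 11.4% of tested genes. In bulk tissue, fewer cells of a type and less RNA per cell cannot be told apart.

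With the replicate number added to the edgeR model as a block, all 3 passed as lower (adjusted p = 0.0262 for Acta2, 0.0338 for Tagln and 0.0219 for Myh11), as 1.79% of tested genes did. The block sets each injured animal against the control of the same number. The numbers come from the sample labels, which do not say what they stand for. Their use as pairs rests on how the libraries of these same data deviated from their group means. Differently numbered libraries were not set beside them, so the numbers are not shown to mark pairs. DESeq2 also called these 3 genes lower (adjusted p = 3.59e-06, 0.000454 and 2.14e-06 in the same order), with 3.98% of its tested genes called lower. Without the filter on low counts, Acta2 and Myh11 passed (edgeR, adjusted p = 0.0376 and 0.0435), as 0.634% of the genes then tested did. With limma-voom none of the 3 passed (adjusted p = 0.0623 for Acta2, 0.1004 for Tagln and 0.0665 for Myh11). None passed in edgeR with RLE scaling, upper-quartile scaling or library size alone. The same held with a filter of 1 CPM in 3 libraries. Whether the 3 genes count as changed therefore depended on the model and its settings, although their direction was the same in each.

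**Figure D1:**
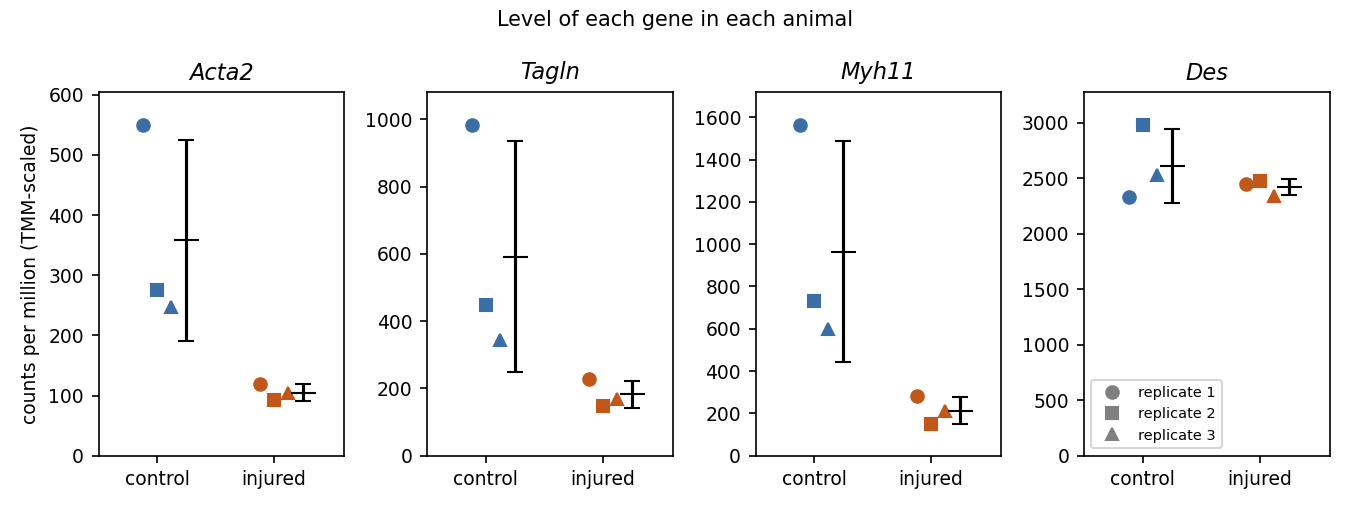
Scaled level (CPM, linear axis from 0) of each gene in each animal, with control animals in blue and injured animals in orange. Symbols give the replicate number, and the black dash and bar give the mean and SD of 3 animals. The injured values of Acta2, Tagln and Myh11 all lie below the control values, control replicate 1 is the highest in each of these 3 genes, and the groups overlap for Des.

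Acta2, the actin of the thin filament, reached 550, 276 and 248 CPM in the control animals. The injured animals had 119, 92.3 and 103 CPM. The groups did not overlap, and the lowest control was 2.08 times the highest injured value. Group means were 358 ± 167 CPM for controls against 105 ± 13.6 CPM after injury (SD, n = 3 each). The log2 fold change, injured minus control, was -1.77 ± 0.32 (standard error), with a 95% interval from -2.52 to -1.02 (edgeR, adjusted p = 0.0539). On the linear scale this is 3.41-fold lower, with an interval from 2.02-fold to 5.74-fold. Acta2 is a member of the actin family, whose coding sequences are nearly alike. How reads shared by such copies were counted is not given in the sources used here, so its values are uncertain to that extent.

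Tagln, the actin-binding transgelin, had 983, 447 and 345 CPM in the control animals. Its values after injury were 228, 148 and 170 CPM. Of the 3 genes that were lower, Tagln had the narrowest gap between the groups, with the lowest control 1.51 times the highest injured value. Its means were 592 ± 342 CPM and 182 ± 41.5 CPM (SD, n = 3 each). Its log2 fold change was -1.70 ± 0.41 (standard error), with a 95% interval from -2.67 to -0.74 (edgeR, adjusted p = 0.0892).

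Myh11, the myosin motor of smooth muscle, was at 1563, 733 and 598 CPM in the control animals. After injury it was at 281, 150 and 209 CPM. Its lowest control was 2.13 times its highest injured value, and no other of the 4 genes had a lower fold change. Group means were 965 ± 523 CPM for controls against 213 ± 65.6 CPM after injury (SD, n = 3 each). The log2 fold change was -2.18 ± 0.42 (standard error), with a 95% interval from -3.16 to -1.19 (edgeR, adjusted p = 0.0609), which is 4.52-fold lower with an interval from 2.28-fold to 8.97-fold.

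Des, the desmin gene shared with striated muscle, had 2331, 2981 and 2529 CPM in the control animals. The injured animals had 2449, 2474 and 2341 CPM, all within the control range. The means were 2613 ± 333 CPM and 2421 ± 70.3 CPM (SD, n = 3 each), a log2 fold change of -0.11 ± 0.14 (standard error; edgeR, adjusted p = 0.677). The 95% interval ran from -0.43 to 0.21, so these data leave room for a level from 1.35-fold lower to 1.16-fold higher. In the RefSeq annotation (GRCr8), 1 long noncoding gene, LOC102550477, overlaps Des on the opposite strand. Only gene spans were compared, and overlap of exons was not examined. The counts rest on another build, Rnor_6.0. The strand setting of the counting is not given in the sources used here. Whether reads of LOC102550477 were counted in Des is therefore not known. All 4 genes were found in that annotation by symbol, and 0 annotated genes overlap Acta2, Tagln or Myh11 there.

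Acta2, Tagln and Myh11 were among the lowest fold changes of the abundant transcripts. Among the 1599 genes that averaged 100 CPM or more, Myh11 ranked 5, Acta2 8 and Tagln 9 from the lowest log2 fold change, while Des ranked 742. The median log2 fold change was -0.08 over these 1599 genes and -0.01 over all tested genes. Of the 10 abundant genes with the lowest fold changes, 2 passed the edgeR test, and neither was one of the 4. Spread among controls was wide for the 3 genes: their SD of log2 CPM in controls was 0.62 for Acta2, 0.79 for Tagln and 0.73 for Myh11, against a median of 0.17 over the abundant genes. Only 9.69%, 6.94% and 8.01% of the abundant genes, in that order, had a larger SD among controls. In injured animals the SD was 0.19, 0.32 and 0.45, against a median of 0.11. There 23.3%, 10.1% and 5.57% of the abundant genes had a larger SD, so the spread of Tagln and Myh11 was wide in both groups. Des had 0.18 in controls and 0.04 in injured animals.

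**Figure D2:**
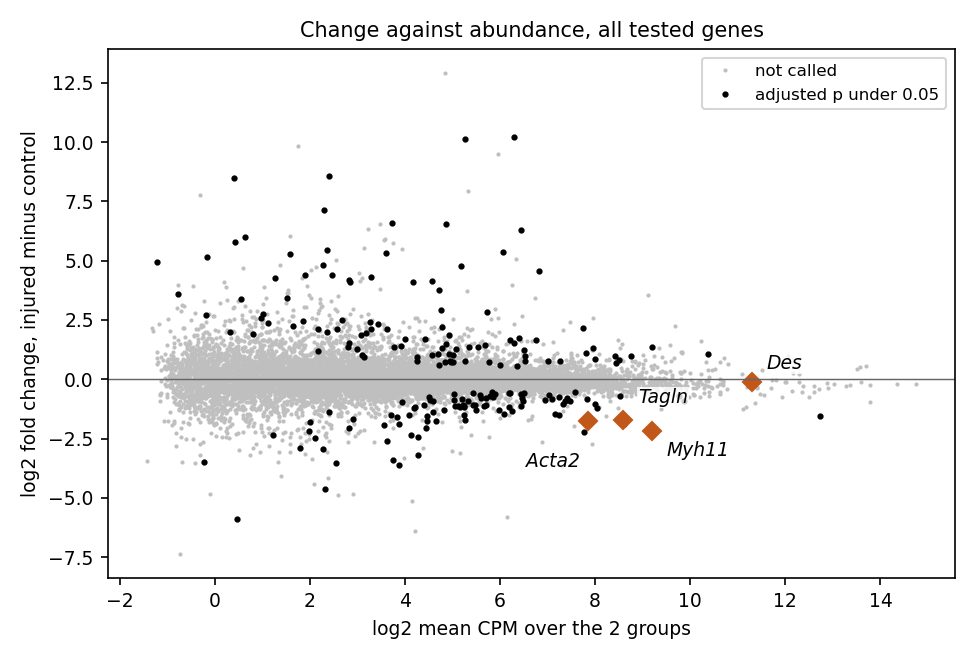
Log2 fold change (injured minus control) against log2 mean CPM for the 14481 tested genes, with those under an adjusted p of 0.05 (edgeR) in black and the others in grey. The 4 contractile genes are orange diamonds: Acta2, Tagln and Myh11 lie at the lower edge of the cloud for their abundance, from -1.70 to -2.18, and Des lies near 0.

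The control spread came mostly from control replicate 1. It held 2.10 times the mean of the other 2 controls for Acta2, 2.48 times for Tagln and 2.35 times for Myh11, but 0.846 times for Des. Without that library the differences of Acta2, Tagln and Myh11 were smaller, and so were their standard errors, while Des went from -0.11 to -0.18. The log2 fold change became -1.31 ± 0.14 for Acta2 and -1.63 ± 0.26 for Myh11 (standard error), and both passed the test (edgeR, adjusted p = 0.0195 and 0.0435). For Tagln it became -1.12 ± 0.21 (edgeR, adjusted p = 0.0586). In this comparison of 2 controls with 3 injured animals, 1.35% of tested genes passed as lower. Control replicate 1 stood out in these same genes, so its removal narrows their spread. The p-values without it are therefore not independent support. Leaving out any one of the other 5 libraries gave an adjusted p of 0.0703 or more for Acta2, 0.0814 or more for Myh11 and 0.108 or more for Tagln (edgeR), with all values lower in injured animals.

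**Figure D3:**
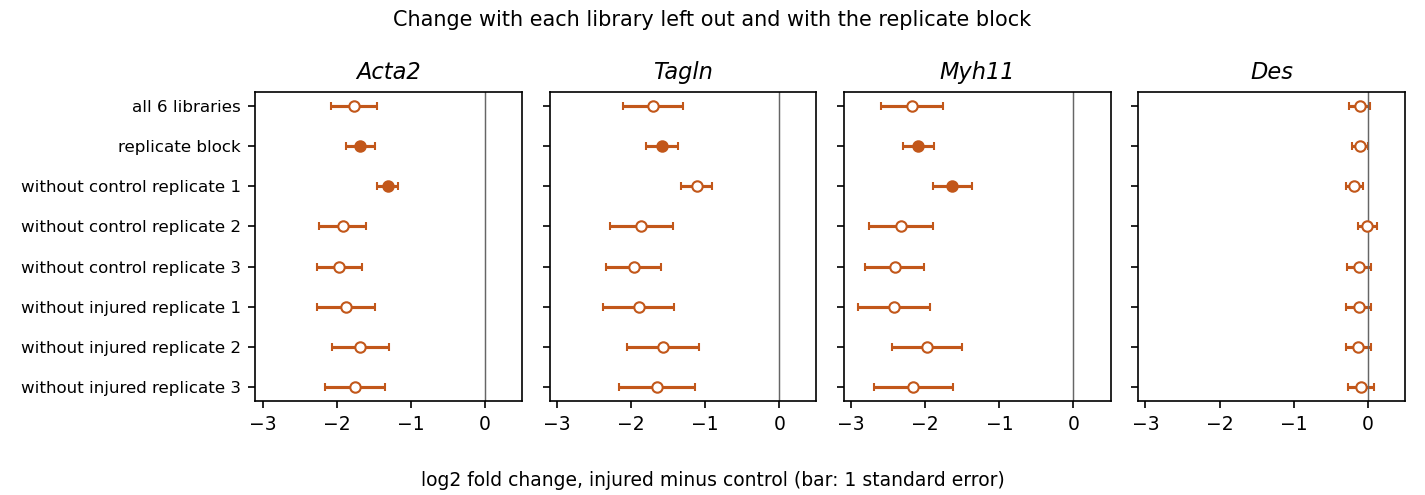
Log2 fold change (injured minus control) of each gene with all 6 libraries, with the replicate block, and with each library left out, all by edgeR. Bars are 1 standard error, and filled points passed an adjusted p of 0.05. For Acta2, Tagln and Myh11 every point lies below 0 and the smallest differences are those without control replicate 1, while the Des points lie between -0.18 and 0.

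Acta2, Tagln and Myh11 ordered the animals in the same way. In all 3 genes control replicate 1 was the highest control and replicate 3 the lowest, and injured replicate 1 was the highest injured animal and replicate 2 the lowest. Des had another order, with control replicate 2 highest and replicate 1 lowest. Likeness of pattern was measured as Pearson's r of log2 CPM over the 6 libraries, among the 9261 genes that averaged 10 CPM or more. It is given as a description, since the 6 points share the difference between the groups. Between Acta2, Tagln and Myh11 it was 0.988 to 0.993, and between each of them and Des it was 0.121 to 0.188. Taken as deviations from the group means, which removes the difference between the groups but leaves few free values, r was 0.962 to 0.988 among the 3 genes and -0.63 to -0.518 with Des. Such values were shared by many genes. On this measure 120, 109 and 140 genes had an r of at least 0.95 with Acta2, Tagln and Myh11, the other members of the 3 included. Tagln and Myh11 ranked 13 and 82 by likeness to Acta2, and Acta2 and Myh11 ranked 10 and 26 by likeness to Tagln. By likeness to Myh11, Tagln ranked 34 and Acta2 87.

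By likeness in level, the 3 genes ranked between 2 and 8 for each other. Myh11 and Acta2 ranked 2 and 3 among all genes by likeness to Tagln, Myh11 and Tagln ranked 3 and 6 by likeness to Acta2, and Acta2 and Tagln ranked 4 and 8 by likeness to Myh11. The nearest to Acta2 was ENSRNOG00000003330 (r = 0.998), which was also the nearest to Myh11 (r = 0.994). The nearest to Tagln was ENSRNOG00000002215 (r = 0.992). With an r of at least 0.95 there were 71 other genes like Acta2, 58 like Tagln and 73 like Myh11. Of these, 34 were like all 3, which is 47.9%, 58.6% and 46.6% of the respective lists. All 34 had lower values in injured animals, as such an r with these 3 genes nearly requires, with a median log2 fold change of -0.54 and a range from -3.19 to -0.14, and 3 of them passed the edgeR test. The 3 genes nearest to Des had r of 0.991 to 0.998, and none of them was Acta2, Tagln or Myh11.

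Ratios of counts between 2 genes within a library are free of scaling and depth, and their change shows whether 2 genes responded alike. The 6 pairs were each compared by a two-sided exact permutation test of 3 against 3 animals, which cannot go below p = 0.1. No pair can therefore pass 0.05, and after adjustment over the 6 pairs the smallest value found was 0.12. The level of a ratio also reflects gene length and is not interpreted. How often the ratios of other gene pairs separate the groups without overlap was not computed.

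Against Des, all 3 genes had lower ratios in every injured library than in every control. Des itself differed by only 1.08-fold, so these ratios largely repeat the differences of the 3 genes. The Myh11 to Des ratio was 0.671, 0.246 and 0.236 in the control animals. It was 0.115, 0.0607 and 0.0893 in the injured animals. The mean log2 ratio differed by -1.99, from -1.56 ± 0.85 to -3.55 ± 0.46 (SD, n = 3 each; exact permutation p = 0.1, adjusted 0.12). For Acta2 to Des the difference was -1.58 and for Tagln to Des -1.47, with the same p-values (exact permutation p = 0.1, adjusted 0.12). Control replicate 1 again had the highest control ratio in all 3 pairs. Without it the differences were -1.50 for Myh11, -1.14 for Acta2 and -0.95 for Tagln, each with exact permutation p = 0.1, the smallest that 2 against 3 animals allow.

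Among Acta2, Tagln and Myh11, the share of Myh11 was lower in every injured library than in every control. Single genes separated the groups without overlap in 15.6% of cases as lower and 13.5% as higher. The share for other gene pairs was not computed, so this separation is not shown to be particular to Myh11. The Tagln to Myh11 ratio was 0.629, 0.610 and 0.577 in the control animals, a narrow range in spite of the wide range of both genes. It was 0.811, 0.985 and 0.811 in the injured animals, above every control. The mean log2 ratio differed by 0.52, or 1.43-fold, from -0.73 ± 0.06 to -0.21 ± 0.16 (SD, n = 3 each; exact permutation p = 0.1, adjusted 0.12). With any one library left out the difference was 0.42 to 0.56.

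The Acta2 to Myh11 ratio was 0.352, 0.377 and 0.415 in the control animals and 0.424, 0.615 and 0.495 in the injured animals. The groups did not overlap, but the highest control and the lowest injured library lay close together. The log2 difference was 0.41 (exact permutation p = 0.1, adjusted 0.12) and 0.27 without injured replicate 2. The Acta2 to Tagln ratio overlapped between the groups, with 0.559, 0.618 and 0.718 in the control animals and 0.523, 0.624 and 0.610 in the injured animals. Its log2 difference of -0.11 was smaller than the SD of either group, 0.18 in controls and 0.14 in injured animals (exact permutation p = 0.5).

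**Figure D4:**
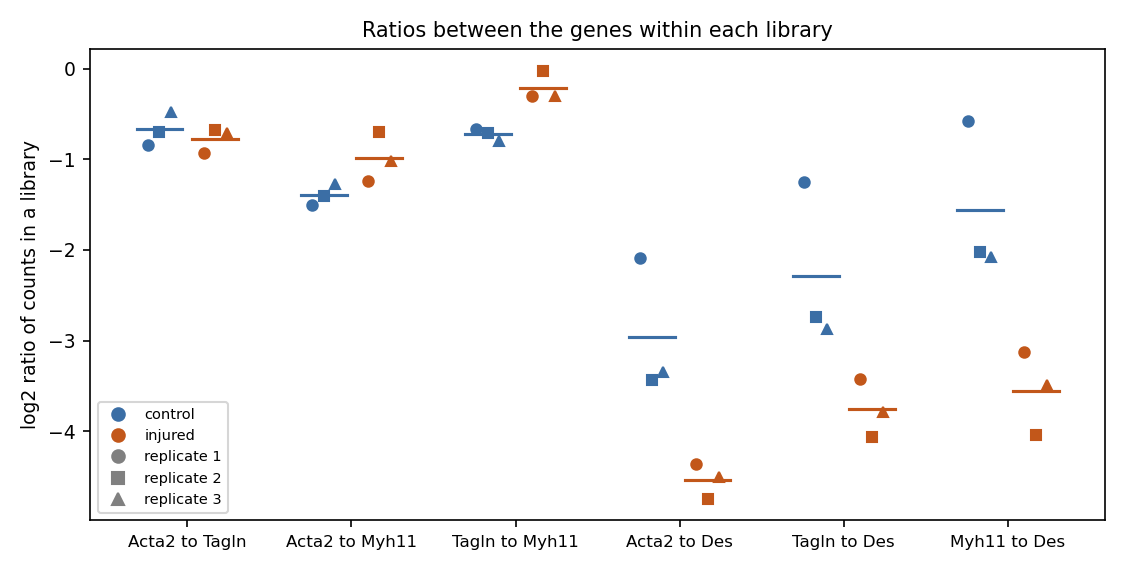
Log2 ratio of counts between 2 genes in each library, with control animals in blue, injured animals in orange, the replicate number as the symbol and the mean of 3 animals as a line. Ratios to Des are lower in all injured libraries, with differences of -1.47 to -1.99 on the log2 scale, while Tagln to Myh11 is higher by 0.52 and Acta2 to Tagln overlaps.

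Lists of other contractile genes, their regulators, matrix genes and markers of other cell types were drawn up, 97 symbols in 10 lists. They were not analysed here, because 0 of the 32623 identifiers could be matched to a symbol. The part of other cell types in the values above, and the labelled tissue itself, was therefore not tested against marker genes.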

How the data were processed

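The values are whole-number counts per Ensembl gene identifier as the authors deposited them, unnormalized, in 1 column per animal. The submitters' processing notes name genome build Rnor_6.0 and the tools HTSeq 0.6.1, HISAT2 2.2.1, DESeq2 1.50.2, fastp 0.24.1 and bcl2fastq 2.20.0.422. What each tool did, the annotation and the strand setting are not given in these sources.

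Genes were filtered with filterByExpr (minimum count 10, minimum total 15), scaled by TMM and tested with edgeR 4.0.16 (quasi-likelihood F test) in R 4.3.3. P-values were adjusted by Benjamini-Hochberg over the 14481 genes tested. A standard error is |log2 fold change| over the root of F, and log2 CPM used a prior count of 2. Alternatives were other scalings and filters, DESeq2 1.42.0, limma-voom 3.58.1, the replicate block and leaving out each library. The 3 same-numbered pairs of libraries deviated from their group means with correlations of 0.366, 0.365 and 0.104 over genes. All were above the limit of 0.1, so the blocked fit is given. Correlations of differently numbered libraries are not given, so these values do not show that equal numbers belong together. The numbers come from the sample labels, but the choice to use them as a block comes from these data. Genes like a member in pattern were picked by rule, the 3 with the highest r for each, and at most 2 identifiers are printed. The 4 genes, lists and rules were chosen with earlier results of these data known.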

Additional observations from a re-analysis of the deposited data

How the results depend on the processing

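The log2 fold changes of all 4 genes were below 0 in all 14 alternatives. These reuse the same 6 libraries, so agreement in sign is not independent support. For Des the values ran from -0.18 to -0.0039, too small to show a direction. With library size alone Des was at -0.036 ± 0.14 (standard error), against -0.11 ± 0.14 in the main fit. Acta2 passed an adjusted p of 0.05 in 4 of them, Myh11 in 4, Tagln in 2 and Des in 0 (adjusted p from 0.367 to 0.992). With DESeq2 the values were -1.76 for Acta2, -2.17 for Myh11 and -1.69 for Tagln, and with the replicate block -1.68, -2.10 and -1.58, all past the threshold. Without a filter on low counts Acta2 (-1.77) and Myh11 (-2.17) passed it (edgeR, adjusted p = 0.0376 and 0.0435). With 1 library left out, values ran from -1.96 to -1.31 for Acta2, -2.43 to -1.63 for Myh11, -1.96 to -1.12 for Tagln and -0.18 to -0.0039 for Des. The ratio differences kept their sign in all such fits. With the replicate block they were the same in size, with an exact sign-flip p of at least 0.25, the smallest that 3 pairs allow.

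Over all genes, 103 were called higher and 93 lower. DESeq2 called 756 and 641, the replicate block 287 and 259, and limma-voom 55 and 69. Scaling by library size alone gave 129 higher and 67 lower. With 1 library left out, 2 to 134 were called higher and 0 to 200 lower, with the top of both ranges reached when control replicate 1 was absent. The bottom was reached without injured replicate 3, where edgeR had 999 genes lower with p below 0.05 before adjustment. The cause was not tested. Counting error of the 4 genes was 2.57% or less of a value, and the spread between libraries of a group, which also holds preparation, was not separated further.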
